A study of Mus musculus with 2 samples.

Results

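Meis1, Meis2, Meis3, Pbx2, Pbx3 and Pbx4 encode homeodomain transcription factors of the TALE class, named for a three-amino-acid loop extension in the homeodomain. The peaks described here are those of an ISL1 binding profile that the deposited annotation lists under 1 of these 6 genes, at any distance, or places in an intron of one of their transcripts. There were 9 such peaks among 1483, and they belonged to 3 of the 6 genes: 5 to Meis1, 2 to Meis2 and 2 to Pbx3. Meis3, Pbx2 and Pbx4 had no listed peak. The genes were chosen with earlier results on this peak list known, so their count is a description and was not tested.

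ISL1, a LIM-homeodomain transcription factor of the pacemaker programme, was precipitated with its bound chromatin from sinoatrial node cells and the DNA was sequenced. The cells came from neonatal ICR mice of genotype Hcn4-H2BGFP at postnatal day 1 to 3. Hcn4 encodes the channel that carries most of the pacemaker current, and it drives the green fluorescent histone by which these cells were sorted. The series held 1 ISL1 library and 1 input DNA library, both with this strain, genotype and age. Only the ISL1 peaks were analysed here and the input was not, so no value below covers variation between animals or preparations. Markers of the sorted cells could not be checked, since a list of binding sites holds no expression values.

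MEIS proteins form dimers with PBX proteins, and the pair binds DNA together, often with a HOX protein as the third partner. PBX proteins depend on MEIS partners for stable residence in the nucleus, and in many tissues the pair marks regulatory DNA early, before other factors act there. In the mouse heart Meis1 is known as a brake on cardiomyocyte proliferation after birth, and Meis2 is needed in the neural crest cells that shape the outflow tract.

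Every score below is the authors' number for a peak and ranks peaks within this list only. Each of the 1483 scores equalled a whole number of steps of 1.37 at the 3 digits given. Intervals given with a score are exact Poisson 95% intervals and assume that a step stands for 1 sequenced tag. They cover counting error only. Positions are mm9 coordinates as deposited, and each peak spanned 144 bp. The focus ratio is the fraction of a peak's tags that lie on the proper side of its centre for a single narrow binding site. No genome sequence of this build was used, so the bases under the peaks are not shown.

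Meis1 had the most peaks of the 6 genes, and none of its 5 lay near its promoter. The 5 peaks spread over 349 kb of chromosome 11, all downstream of the Meis1 transcription start site (TSS), at 135 to 485 kb from it. The peak nearest the start site lay in intron 11 of 11, the last intron of the transcript, at 18783494 to 18783638. Its score was 16.4 (8.48 to 28.7), with a focus ratio of 0.812. The next peak, at 18774255 to 18774399, was annotated as intergenic and lay 9.24 kb further downstream. The 3′ end of Meis1 thus fell between these neighbouring peaks. The intergenic one had a score of 10.9 (4.73 to 21.6) and a focus ratio of 0.9.

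The other 3 Meis1 peaks lay in intergenic DNA far beyond the end of the gene. The highest-scored Meis1 peak was among them, at 18486578 to 18486722 and 432 kb from the start site, with a score of 17.8 (9.47 to 30.4). Its focus ratio of 0.938 was exceeded by 6 of the 1483 peaks. The remaining pair lay at 18434867 to 18435011 and at 18434183 to 18434327, with centres 684 bp apart. Both had a score of 13.7 (6.56 to 25.2), but their focus ratios were 0.786 and 0.471, and 10 peaks of the whole list had a lower focus ratio than the second. Whether the pair is 1 broad site or 2 was not tested. The intervals of the 5 Meis1 scores all overlapped, so the list does not order these peaks by strength.

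Meis2 carried the highest-scored of the 9 peaks. It lay in intron 7 of 11 at 115827160 to 115827304 on chromosome 2, 63.1 kb downstream of the nearest start site. Its score was 27.4 (16.7 to 42.3) and its focus ratio 0.88. Of the 1483 peaks, 65 scored higher. The second Meis2 peak, in intron 9 of the same transcript at 115728742 to 115728886, lay 162 kb from that start site and 98.4 kb from the first. Its score was 12.3 (5.63 to 23.4) and its focus ratio 0.5. The intervals of the 2 Meis2 peaks overlapped. The introns were numbered on one Meis2 transcript and the distances measured from the start of another, as deposited.

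Pbx3, the gene of a PBX partner of these MEIS proteins, had both of its peaks in intron 2 of 7 on chromosome 2. The higher-scored one lay at 34144224 to 34144368, 83.3 kb downstream of the start site, with a score of 20.5 (11.5 to 33.8) and a focus ratio of 0.727. The other lay 59.1 kb further into the gene at 34085118 to 34085262, with a score of 10.9 (4.73 to 21.6) and a focus ratio of 0.8. The intervals of the 2 Pbx3 peaks overlapped as well. Here too the numbered transcript and the start site came from different transcripts of the gene. In both Meis2 and Pbx3 the peak closer to the start site had the higher score, but the overlapping intervals leave that order unresolved. Meis1 did not share it: its highest score, 17.8, was at 432 kb, and its peak nearest the start site had 16.4.

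**Figure D1:**
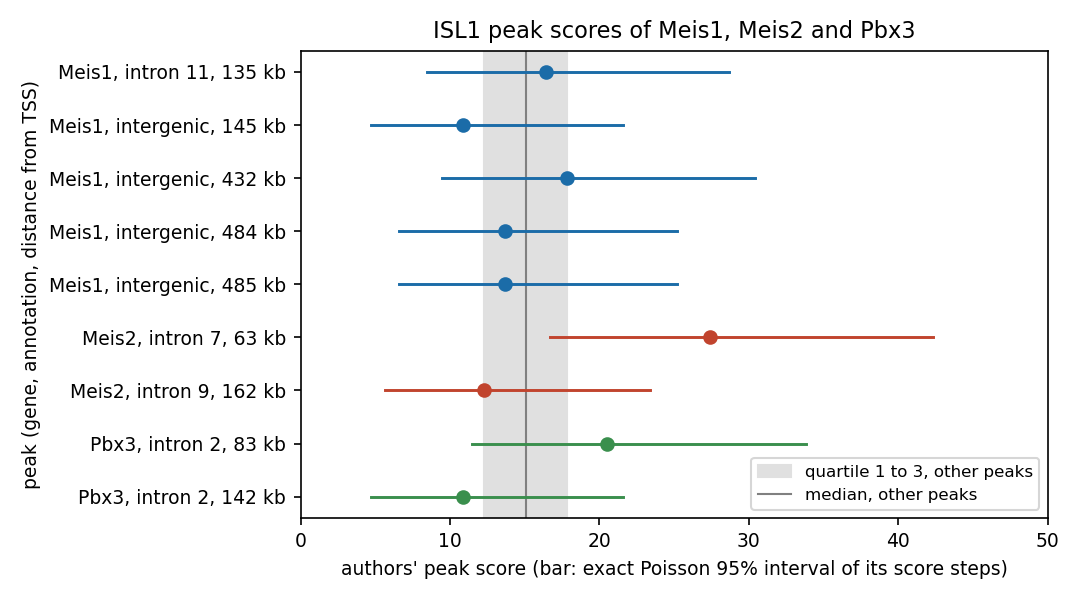
Authors' peak score (x axis, no unit) of the 9 peaks of Meis1, Meis2 and Pbx3, 1 row per peak, labelled with its annotation and its distance from the nearest TSS. Bars are exact Poisson 95% intervals, the grey band runs from the first to the third quartile of the 1474 other peaks (12.3 to 17.8) and the line is their median (15.1); the Meis2 peak in intron 7, at 27.4, has the highest score and its interval overlaps that of every other row.

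As a group the 9 peaks scored close to the rest of the list. Their median score was 13.7 (range 10.9 to 27.4), against 15.1 for the 1474 other peaks (range 8.21 to 84.8), a difference of a single score step. The quartiles were 12.3 and 17.8 in each set. At or above 17.8, the 75th percentile of the whole list, there were 3 of the 9 peaks (33.3%, exact Clopper-Pearson 95% interval 7.49 to 70.1) and 433 of the 1474 others (29.4%). Those 3 comprised 1 peak from each of Meis1, Meis2 and Pbx3. The median focus ratio was 0.8 for the 9 peaks and 0.739 for the others. None of the 9 peaks lay on an annotated repeat, as did 116 of the others (7.87%).

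The peaks of the 3 genes were set back from promoters. Their distance to the nearest TSS had a median of 145 kb (63.1 to 485), against 83.1 kb for the other peaks (quartiles 30.1 and 198). Beyond 100 kb lay 7 of the 9 (77.8%, exact interval 40.0 to 97.2) and 654 of the others (44.4%). Within 10 kb there was none of the 9, a count of 0 for which the exact upper bound is 33.6%, and 169 of the others (11.5%). None of the 9 carried the promoter annotation, and 48 of the other peaks did (3.26%). At 9 peaks from 3 genes these shares are descriptions of 3 loci, and peaks of 1 gene are not independent of each other.

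Each of the 9 peaks was on the downstream side of its TSS, as were 863 of the 1474 others (58.5%). For the intronic ones this follows from their place inside the gene, but 4 of the 9 were intergenic, and all 4 of these, each listed under Meis1, were downstream as well. Of the 794 other intergenic peaks, 369 were downstream (46.5%). In the whole list 28 genes were nearest to 5 or more peaks, Meis1 among them, and 10 of the 28 had every peak downstream (35.7%).

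None of the 5 intronic peaks lay in intron 1, where 149 of 600 other intronic peaks lay (24.8%). The exact upper bound for 0 of 5 is 52.2%. All 5 lay in introns of the gene they were listed under. Of 594 other intronic peaks with a host gene that could be matched, 427 did (71.9%).

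**Figure D2:**
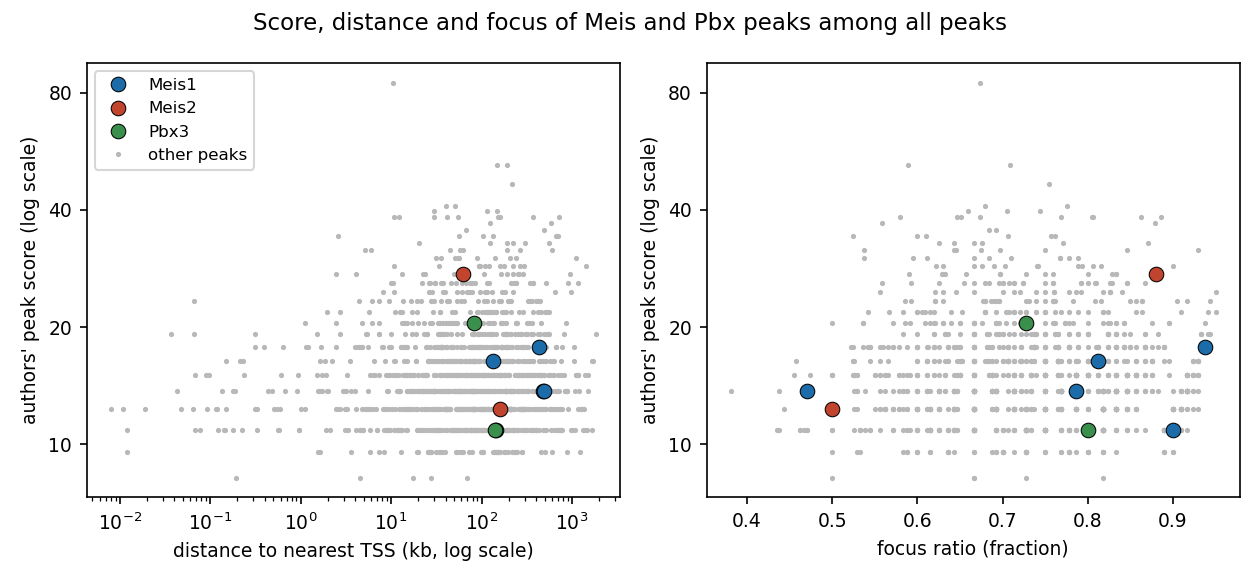
Authors' peak score (y axis, log scale) against the distance to the nearest TSS (left, kb, log scale) and against the focus ratio (right, fraction) for the 9 peaks of Meis1, Meis2 and Pbx3 (large points) and the 1474 other peaks (grey). The 9 peaks lie between 63.1 and 485 kb from a TSS, and their focus ratios run from 0.471 to 0.938.

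Among 26220 genes with a curated transcript, 4.16% were the nearest gene of a peak or held one in an intron. Of the 6 Meis and Pbx genes 3 did, but they were picked with that outcome in view, so nothing is read from the difference. Within 100 kb of a TSS the share was 2.57% of all genes and 2 of the 6, Meis2 and Pbx3. A peak in an intron was found in 1.64% of all genes and in 3 of the 6. Genes differ in length and in the space around them, and these shares do not correct for it.

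The annotation assigns a peak to the closest start site, so the count per gene depends on where its neighbours start. The start sites of Meis1, Meis2 and Pbx3 could be recovered in mm9 from the peaks themselves, as the one position that fits the deposited distances of all peaks of a gene. They were 18918972 on chromosome 11 for Meis1, and 115890357 for Meis2 and 34227565 for Pbx3 on chromosome 2. All 3 genes run toward lower coordinates. Start sites were recovered in this way for all 264 promoters with 2 or more peaks, around which a median of 4 peaks lay within 1 Mb (quartiles 3 and 6).

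The Meis1 start site had 10 peaks within 1 Mb, 8 downstream and 2 upstream. Of the 264 start sites, 93.9% had this many or fewer, with no close peaks merged. After merging within 1 kb, 8 peaks remained around Meis1. Beyond the 5 peaks listed under Meis1, 3 further ones annotated as intergenic lay downstream at 568, 740 and 965 kb from its start site. They were listed under Etaa1, the gene of a replication stress protein, and had scores of 10.9, 13.7 and 21.9. The change of listing fell between a Meis1 peak 485 kb from Meis1 and an Etaa1 peak that lay 498 kb from Etaa1 and 568 kb from Meis1. The Etaa1 and Meis1 start sites are 1065 kb apart, and the 8 peaks between them covered 830 kb. Upstream of Meis1 a pair of peaks listed under the noncoding gene 4933406G16Rik lay 332 kb away with centres 311 bp apart, and their scores were 27.4 and 17.8. The first of that pair scored higher than each of the 5 peaks listed under Meis1, but its interval (16.7 to 42.3) overlapped that of each of them.

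The Meis2 start site had 8 peaks within 1 Mb, all downstream, and 87.1% of the 264 start sites had this many or fewer. Only the 2 intronic ones were listed under Meis2. A peak of score 20.5 at 581 kb was listed under the noncoding gene 3110099E03Rik. Another 5 were listed under the noncoding gene 4930528P14Rik. Of these, 4 formed a group 26.6 kb long at 670, 672, 679 and 697 kb from the Meis2 start site, with scores of 27.4, 20.5, 41.0 and 13.7. The fifth lay at 997 kb with a score of 19.2.

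On the upstream side of Meis2 the list was empty over a long stretch. The closest upstream peak lay 7.97 Mb away and was listed under Sema6d, a semaphorin gene named here after its value was seen. The gap between that peak and the Meis2 peak in intron 7 was 8.03 Mb. Of the 1463 gaps between consecutive peaks of a chromosome 60 were longer, 3 of them on chromosome 2, and the median gap was 536 kb. Mappability and read coverage in this stretch were not tested.

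The Pbx3 start site had 4 peaks within 1 Mb, 2 downstream in its own intron 2 and 2 upstream, which is the median of the 264 start sites. The upstream ones both lay in introns of Mapkap1, which encodes a subunit of the mTORC2 kinase complex. One, in intron 6 of 11 and 160 kb from the Pbx3 start site, had a score of 21.9 and was listed under Mapkap1. The other, in intron 9 and 220 kb away, had a score of 13.7 and was listed under Gapvd1, a regulator of RAB5 in endocytosis. The Mapkap1 peak and the higher-scored Pbx3 peak, at 21.9 and 20.5, differed by 1 score step.

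**Figure D3:**
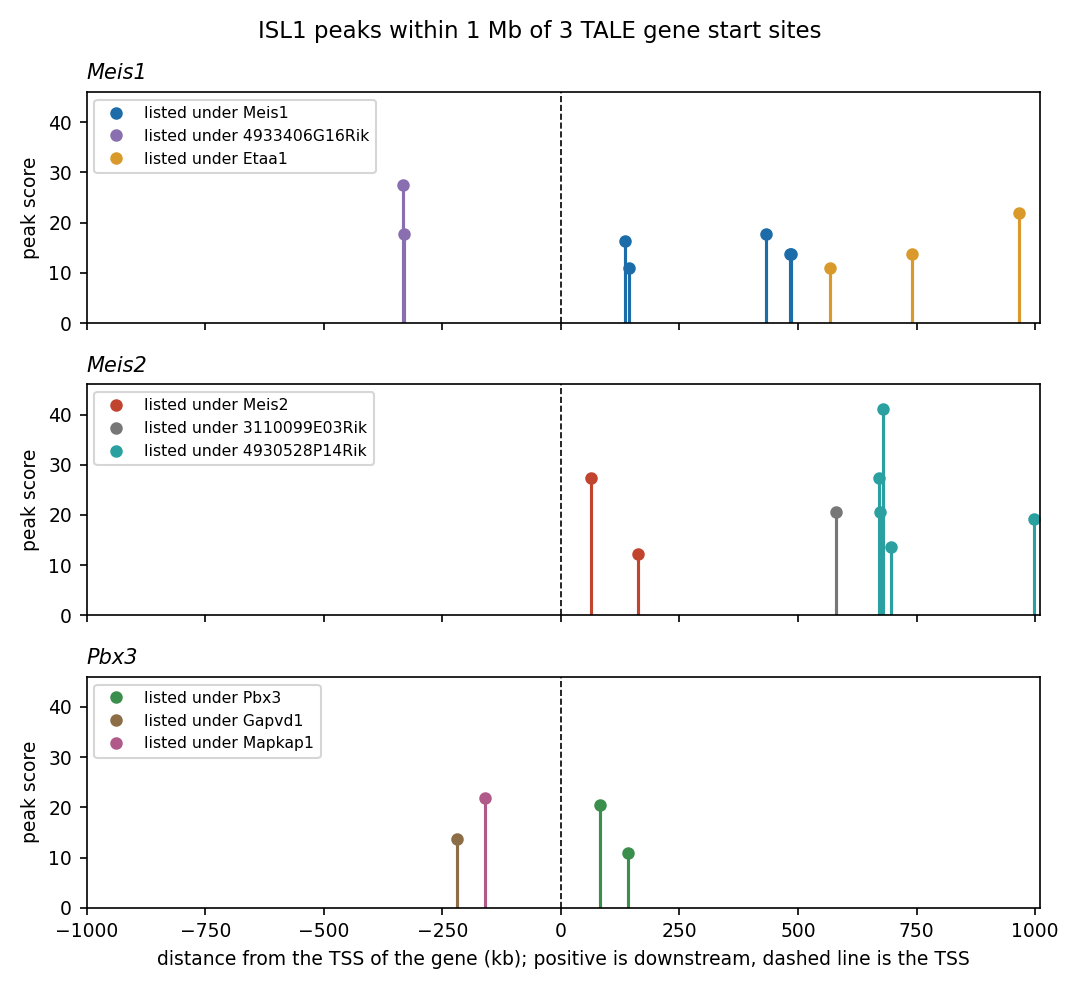
Peak scores (y axis, no unit) of all peaks within 1 Mb of the start sites of Meis1, Meis2 and Pbx3, against the distance from that start site in kb (x axis, positive downstream). Colours give the gene each peak is listed under; Meis1 has 8 peaks downstream and 2 upstream, Meis2 8 and 0, and Pbx3 2 and 2.

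The 9 peaks lay close to other peaks. Each had another one within 100 kb, as did 577 of the 1474 others (39.1%), and 4 of the 9 had one within 10 kb, against 195 of the others (13.2%). The distance to the nearest other peak had a median of 51.7 kb for the 9 and 205 kb for the others (quartiles 38.1 and 715). For each of the 9, that nearest peak was another of the 9, listed under the same gene. These values thus describe the spacing within 3 genes that each had more than 1 listed peak, and not 9 separate observations. Around the 5 Meis1 peaks 9 further peaks lay within 1 Mb of each, around the Meis2 peaks 7 and around the Pbx3 peaks 3, against a median of 2 for the other peaks of the list. The counts for each gene include its own other peaks, so they repeat the same neighbours.

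Meis3, Pbx2 and Pbx4 encode the remaining MEIS and PBX proteins considered. In the gene order of the GRCm38.p6 assembly, the 3 genes before and the 3 genes after each of them were also without a peak. The closest gene with a peak, counted along that order, was 38 genes away for Pbx4, 123 for Pbx2 and 562 for Meis3. For Meis1 and Pbx3 it was the adjacent gene, 4933406G16Rik and Mapkap1, and for Meis2 it was the third gene, 3110099E03Rik. These are places in gene order and not distances. The lowest score listed was 8.21, or 6 steps, and a site that scored below it is not in the list.

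Other TALE genes with a peak had intergenic peaks only. Of 11 (Pknox1, Pknox2, Tgif1, Tgif2, Mkx and the 6 Iroquois genes), 3 were nearest to a peak: Irx1, Irx3 and Irx4, which encode Iroquois transcription factors. That is 27.3% (exact interval 6.02 to 61.0), beside 4.16% of all genes, and nothing is read from it as the list was chosen with earlier results known. Their 4 peaks were all intergenic, at 109 to 171 kb from the start site. Irx1 had peaks of score 21.9 at 114 kb downstream and of 20.5 at 171 kb upstream. Irx4 had 1 of 21.9 at 109 kb upstream, and Irx3 had 1 of 16.4 at 143 kb upstream. None of the 11 genes had a peak in an intron, whereas all 3 Meis and Pbx genes with peaks did. The difference was not tested.

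No peak was listed under any of 14 HOX genes of paralogue groups that partner PBX and MEIS, such as Hoxb2, Hoxb4 and Hoxd3, and none lay in their introns. The exact Clopper-Pearson upper bound for 0 of 14 genes is 23.2%, above the 4.16% of all genes. In a chosen list of 11 genes of the LIM-homeodomain complex (Isl1, Isl2, Lhx2, Lhx9, Lmo2, Lmo4, Ldb1, Ldb2, Ssbp2, Ssbp3 and Ssbp4), 2 had peaks. That is 18.2% (exact interval 2.28 to 51.8), beside 4.16% of all genes. Nothing is read from this share, as the list was chosen with earlier results known. The list does not hold every LIM-domain gene, and some outside it had peaks, such as Lmo1 with 1 of 17.8 at 24.4 kb. Isl1 itself had 2 intergenic peaks, of 15.1 at 200 kb and 10.9 at 185 kb upstream. Lmo4, a LIM-only adaptor gene, had 1 of 17.8 in intron 1, 1.21 kb from its start site, and 1 of 12.3 at 15.3 kb. The Lmo4 peaks lay closer to a start site than each of the 9 peaks of Meis1, Meis2 and Pbx3.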

How the data were processed

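The ISL1 library's peak list was analysed. Bowtie, HOMER and the mouse build mm9 are named per the submitters' processing notes, with no versions. Per the file headers, HOMER annotated the peaks on mm9, starting from a table named after the input. How peaks were called and whether duplicates were removed is not given in the sources used. The deposited peak score, the focus ratio (a fraction) and the signed distance to the nearest TSS are the authors' values. The labels' protocols give crosslinking in 2 mM disuccinimidyl glutarate, then in 1% formaldehyde, and shearing to 100 to 400 bp. The first agent also links proteins to each other, so ISL1 may sit at a peak through a partner.

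The members and gene lists were chosen with earlier results of these data known, and no test of significance was made. Nearest genes were matched by Entrez identifier (1002 of 1003) and host transcripts by accession (6 of 605 intronic peaks unmatched, none of them nearest to a member) to a RefSeq table of GRCm38.p6, used for names and gene order only. For that reason the planned background by gene length was not run. Protein identity was not computed, as no protein sequences were used. Named were all members with their peaks, every gene listed for a peak within 1 Mb of their start sites, host genes and list members with a peak. Total reads are unknown, so precision rests on score steps. Python 3.11.15, pandas 2.3.3 and scipy 1.17.1 were used. The step search, start-site recovery and merging were tested on simulated data. One gene of the planned HOX list is not reported here.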

Additional observations from a re-analysis of the deposited data

How the results depend on the processing

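Meis1, Meis2 and Pbx3 each had a peak at or above the median score, at or above the 75th percentile, inside the gene, without repeats and after merging within 1 or 10 kb. Within 100 kb Meis2 and Pbx3 did. The count of 9 peaks fell to 4 at or above the median score, 3 at or above the 75th percentile, 2 within 100 kb and 5 inside the gene, each by leaving peaks out. With peaks within 100 kb alone the median score was 23.9 and the median distance 73.2 kb. Merging gave 8 peaks at 1 kb and 7 at 10 kb. A window of 500 kb, chosen after seeing the data, left 2 of the 8 peaks around Meis2, both its own. The same window left 7 of the 10 peaks around Meis1 and all 4 around Pbx3. Merging within 1 kb left 8 around Meis1, and the counts around Meis2 and Pbx3 did not change. No paired analysis was possible because the series has 1 ISL1 library. The median of the 9 peaks rests on 10 steps, too few to tell neighbouring scores apart.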
